A study of Homo sapiens with 10 samples.

Results

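Positions 1200 to 1639 of human 18S rRNA, a stretch of the 3′ major domain, were examined base by base. The stretch was defined by position and not by a limit on any measured value, though earlier results of these data were known. It holds 440 of the 6939 positions of 18S and 28S rRNA that were counted in every library. Of the 106 2′-O-methylated positions that the study lists as known in both rRNAs (40 in 18S and 66 in 28S), 9 lie in it: C1272, U1288, U1326, G1328, A1383, C1391, U1442, G1447 and G1490. It also holds U1555, 65 nt downstream of G1490, a candidate methylation site that the study picked from the NextSeq libraries analysed here, so that its counts in those libraries are no independent evidence for it. In hg19 the stretch lies on the plus strand of an unplaced contig with 2 copies of the 18S gene, at 110277 to 110716 and at 154249 to 154688, and both copies have the same sequence.

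The libraries were made by RibOxi-seq from total RNA of PA1 cells, an established line from a human ovarian teratoma. RNA was fragmented with the nuclease Benzonase, and the counts give the positions at which fragments ended. Control libraries were made from the fragments as they were, with the oxidation steps left out. For the oxidized libraries, the last base was first removed by β-elimination and the fragments were then treated with sodium periodate, which destroys a 3′ end whose ribose carries free 2′ and 3′ hydroxyls, so that an end on a 2′-O-methylated base can still be ligated. There were 3 control and 3 oxidized libraries sequenced on a NextSeq (replicates 1 and 2 from cells at passage 6, replicate 3 from cells at passage 4), and a pilot of 2 control and 2 oxidized libraries sequenced on a MiSeq (passage 7). All cells were of this 1 line with no genetic change. The labels do not say whether replicates came from separate cultures, so each p-value measures only the spread between these libraries, which may be technical.

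In 2′-O-methylation a methyl group is placed on the ribose hydroxyl next to the 3′ bond of a nucleotide. In human rRNA the methyl group is placed by fibrillarin, within particles in which a box C/D snoRNA chooses the target. The snoRNA pairs with the rRNA just upstream of a short box D or D′ element and the rRNA base that faces the fifth snoRNA base before that element is methylated. The 3′ major domain forms the head of the small ribosomal subunit. A methylated nucleotide also resists cleavage on its 3′ side, so in control libraries few fragments are expected to end there.

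The 9 known sites and the candidate are printed first because every later comparison rests on them. Each line gives 21 bases of the RNA, with the counted position in capitals at its centre.
C1272: cucacccggcCcggacacgga
U1288: acggacaggaUugacagauug
U1326: ccguggguggUggugcauggc
G1328: guggguggugGugcauggccg
A1383: ccgauaacgaAcgagacucug
C1391: gaacgagacuCuggcaugcua
U1442: ucccccaacuUcuuagaggga
G1447: caacuucuuaGagggacaagu
G1490: agcaauaacaGgucugugaug
U1555: agcgugugccUacccuacgcc
The sites fell on all 4 bases, with 2 C, 3 U, 3 G and 1 A among the known ones, and 6 of the 9 stood as close pairs. U1326 and G1328 were 2 nt apart, U1442 and G1447 were 5 nt apart, and A1383 and C1391 were 8 nt apart.

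The listed guide snoRNAs were HBII-142 (SNORD66) for C1272, HBII-55 (SNORD110) for U1288, U33 (SNORD33) for U1326, U32A (SNORD32A) for G1328, SNORD30 for A1383, U28 (SNORD28) for C1391, U61 (SNORD61) for U1442, SNORD127 for G1447 and U25 (SNORD25) for G1490. A gene for 6 of the 9 was read from the hg19 annotation, and its longest unbroken pairing with the rRNA across the site, G-U pairs allowed, is printed 5′ to 3′ with the base that faces the site in capitals. These lines show how a guide addresses its site.
SNORD66: cgugucugGgcc
SNORD110: aaucugucaAucc
SNORD33: caugcacuAccaucug
SNORD32A: ccaugcaCcgcu
SNORD61: uccucuaagAaguu
SNORD127: gucccuCuaa
The pairings were 12, 13, 16, 12, 14 and 10 bases long in that order, with 1, 0, 4, 2, 1 and 0 G-U pairs. In all 6 the letters CUGA, the box D sequence, began 5 bases downstream of the capital, so that the site faced the fifth base before the box. The SNORD33 pairing as printed ran on into the box itself, so its 16 bases are not all upstream of it. The genes lie at chr3:184043484-184043559 (SNORD66, plus strand, within EIF4G1), chr20:2634858-2634932 (SNORD110, plus strand, within NOP56), chr19:49993872-49993956 (SNORD33, plus strand, within RPL13A), chr19:49993222-49993305 (SNORD32A, plus strand, also within RPL13A), chrX:135961358-135961430 (SNORD61, minus strand, within RBMX) and chr14:45580086-45580171 (SNORD127, plus strand, within PRPF39). SNORD66 and SNORD127 overlapped no annotated exon of the coding gene around them, and each of the other 4 overlapped an exon of at least 1 annotated transcript of its host. U1326 and G1328 are thus addressed by a pair of snoRNAs from the same host gene, and their pairings cover overlapping stretches of the rRNA (positions 1319 to 1334 and 1324 to 1335).

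Library totals over 18S and 28S were 72458614 to 80964624 counts in the NextSeq controls, 12293410 to 13694386 in the oxidized NextSeq libraries, 30392418 and 44061905 in the MiSeq controls, and 1353768 and 1568883 in the oxidized MiSeq libraries. A count is not 1 read. In the stretch of 440 positions low counts gathered at 2 and at 50, with none from 40 to 49 in any library, and if a read is worth about 50 counts the oxidized libraries rest on far fewer reads than their totals. Values below are given as CPM, the count scaled to a common library total of 1000000. Control replicate 3 of the NextSeq stood apart before any site was considered. Over the 440 positions the log2 counts of control replicates 1 and 2 correlated at r = 0.98, and those of replicate 3 with them at r = 0.25 and 0.26, across positions, which share base composition and are not independent. Replicate 3 came from cells at passage 4. Among the oxidized libraries r was 0.77 to 0.81, replicate 3 included. The part of passage was not tested. Results that rest on control replicate 3 are therefore given with and without it.

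The main result was a concentration of the counts of the stretch on the 9 known sites. In the oxidized NextSeq libraries the 9 sites held 90.0%, 92.8% and 92.6% of all counts between 1200 and 1639, against 0.120%, 0.139% and 1.61% in the controls. The lowest oxidized library was thus far above the highest control, and the difference of 91.2 percentage points (91.8 ± 1.59, SD, n = 3, against 0.624 ± 0.856, n = 3) exceeded the spread between replicates. An exact two-sided permutation test gave p = 0.1, the smallest that 3 against 3 libraries allow (Benjamini-Hochberg 0.2 over 4 such tests). In the MiSeq pilot the share was 58.9% and 59.5% in the oxidized libraries and 0.186% and 0.122% in the controls (exact two-sided permutation p = 0.333, the smallest that 2 against 2 allow). The stretch as a whole did not move in 1 direction. It took 3.62% ± 0.558 of the counts of oxidized and 5.27% ± 1.01 of control NextSeq libraries, but 6.93% ± 0.313 of oxidized and 2.30% ± 0.0224 of control MiSeq libraries (SD, n = 3 and n = 2 a group).

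**Figure D1:**
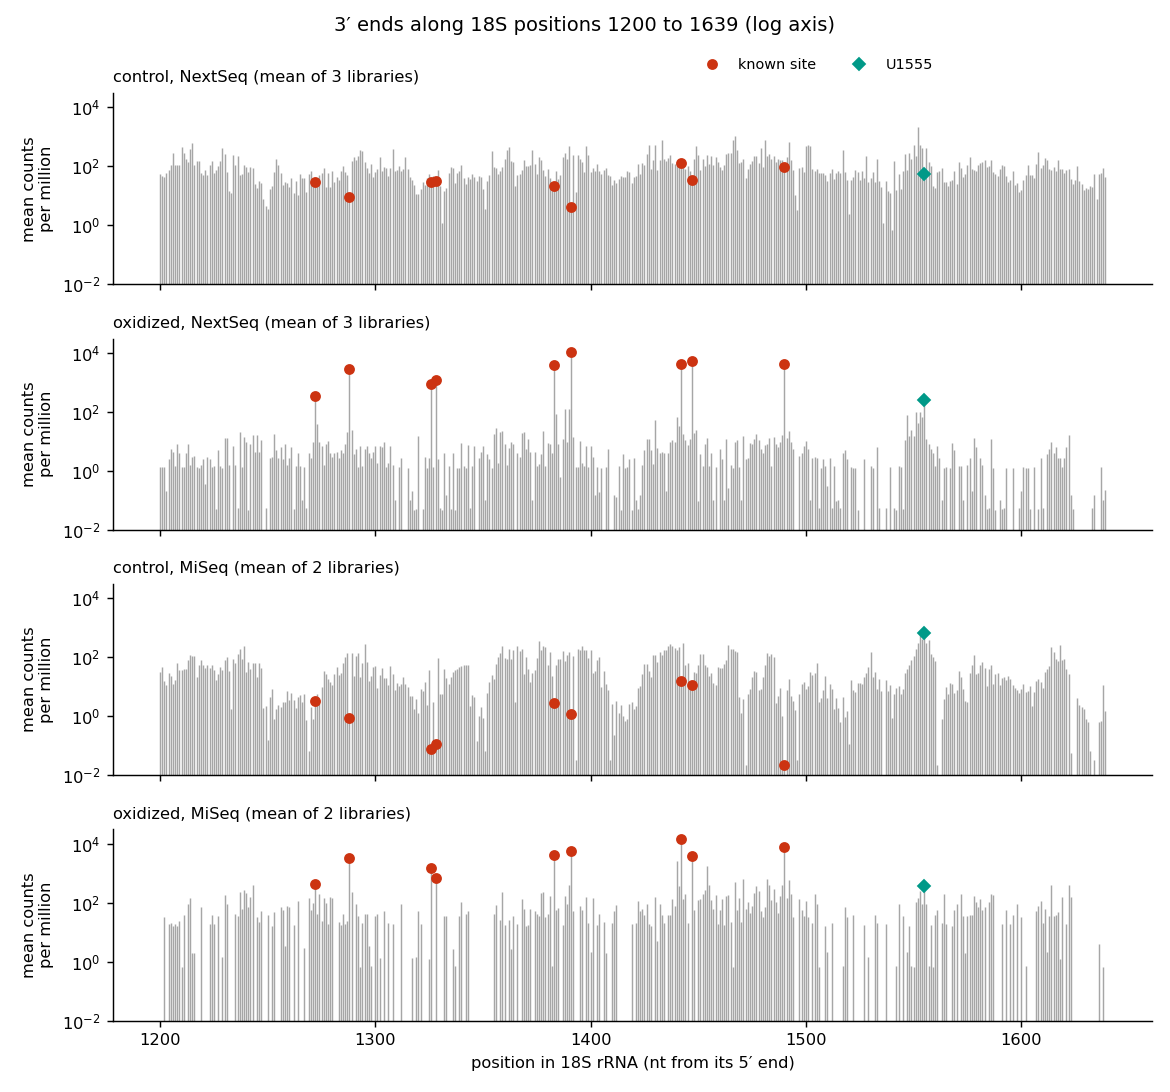
Mean CPM at each of the 440 positions (log axis, lines drawn from 0.01 and lower values left off), by position from the 5′ end of 18S rRNA, in the 4 groups. In both oxidized groups the 9 known sites (red) stand above the positions around them, and in the controls most of them lie below their surroundings. U1555 (green) is high in the MiSeq controls.

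A position-wise test was then made with edgeR's quasi-likelihood test over all positions of both rRNAs, with TMM scaling and Benjamini-Hochberg adjustment, and a position was called where oxidation raised it by more than 7 on the log2 scale with adjusted p under 0.05. In the NextSeq experiment 9 of the 440 positions were called, against 1.53% of all 6718 positions tested (103 positions, of which 97 were known sites). The 9 were all of the known sites, and 0 of the 431 other positions passed both limits, against 0.0907% of all 6612 positions that are not known sites. The fold limit is the study's, which placed it by the smallest fold changes among known sites in its NextSeq data. That the known sites passed it here was therefore partly set in advance and is no independent evidence. With no limit on the fold, 19 positions passed (the 9 known sites and 10 others), against 3.02% of all positions. With library totals alone 7 passed, all of them known sites, and U1326, G1328 and the 10 others did not. The known sites here had a median log2 fold change of 10.02 (range 7.94 to 15.05). The 97 known sites elsewhere in 18S and 28S had a median of 11.14, and 88 of the 97 passed both limits. The 431 other positions had a median of -0.97 and all 6718 positions one of -2.25. The fold change depends on the scaling, since TMM gave factors of 3.18 to 6.17 to the controls and 0.243 to 0.265 to the oxidized libraries. With library totals alone, the median of all positions was -6.26 and that of the 9 known sites 5.44. The known sites lay about as far above the bulk on either scale, but only U1288, A1383, C1391 and G1447 then remained above 7.

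C1272 was the weakest of the 9. It had 6.96, 6.43 and 72.1 CPM in the NextSeq controls and 270.3, 372 and 343 CPM in the oxidized libraries. The groups did not overlap, and control replicate 3 came nearest to the oxidized libraries. Its log2 fold change was 7.94 (SE 1.14, adjusted p = 0.0220, edgeR with Benjamini-Hochberg), and 9.25 without control replicate 3. The 7.94 was the value just inside the limit of 7, and the value just outside was that of U1555 at 6.44.

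U1288 rose from 3.78, 4.17 and 19.9 CPM to 2373, 3008 and 3214 CPM. All 3 oxidized libraries were high and all 3 controls low, with a log2 fold change of 12.54 (SE 0.90, adjusted p = 0.00116, edgeR with Benjamini-Hochberg). In the MiSeq pilot it stood at 1.5 and 0.197 CPM in the controls and at 3524 and 2954 CPM in the oxidized libraries, a log2 fold change of 12.07 (SE 1.52).

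The close pair U1326 and G1328 depended most on control replicate 3. U1326 had 0.110, 1.93 and 84.0 CPM in the controls and 799.9, 924 and 908 CPM in the oxidized libraries. G1328 had 0.0552, 1.28 and 94.2 CPM in the controls and 1099, 1208 and 1151 CPM in the oxidized libraries. At both sites the oxidized libraries were close together and the controls were spread widely, with replicate 3 the highest, though still below every oxidized library. The log2 fold changes were 9.52 (SE 2.34, adjusted p = 0.0371) and 9.77 (SE 2.57, adjusted p = 0.0412) by edgeR with Benjamini-Hochberg adjustment. Without control replicate 3 they were 13.38 and 14.37. They were also the sites whose call was lost when any 1 oxidized library was left out, with edgeR Benjamini-Hochberg adjusted p of up to 0.0614 and 0.0702. With counts divided by 50 these 2 sites and G1490 missed 0.05, which left 6 of the 9 calls.

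In the NextSeq experiment A1383 and C1391 were the strongest pair. A1383 had 1.61, 2.77 and 57.8 CPM in the controls and 3373, 4126 and 3831 CPM in the oxidized libraries. Its log2 fold change was 12.03 (SE 1.70), and 14.39 without control replicate 3. C1391 had 1.77, 9.24 and 1.59 CPM in the controls and 8686, 11501 and 11531 CPM in the oxidized libraries. It was the most counted position of the stretch in all 3 oxidized NextSeq libraries, with 29.2% ± 0.0143 of the counts, and the one known site at which control replicate 3 was not the highest control. Its log2 fold change of 15.05 (SE 1.51, adjusted p = 0.00379, edgeR with Benjamini-Hochberg) was the largest of the 440.

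Of the last 3 known sites, U1442, G1447 and G1490, G1447 was the highest in each oxidized NextSeq library. U1442 had 12.6, 10.4 and 371 CPM in the controls and 3155, 4653 and 4761 CPM in the oxidized libraries. G1447 had 26.7, 24.5 and 52.9 CPM in the controls and 3774, 6069 and 6040.5 CPM in the oxidized libraries. G1490 had 2.1, 5.16 and 283 CPM in the controls and 3213, 4653 and 4729.8 CPM in the oxidized libraries. Oxidized replicate 1 was the lowest of the 3 at each site, and control replicate 3 was the highest control at each. The log2 fold changes were 9.53 (SE 1.63) at U1442, 11.32 (SE 0.65) at G1447 and 10.02 (SE 2.08) at G1490, with adjusted p of 0.0359, 0.000575 and 0.0359 by edgeR with Benjamini-Hochberg adjustment. G1447 had the smallest SE of the 9. Without control replicate 3, U1442 rose by 12.15 and G1490 by 13.81 on the log2 scale.

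**Figure D2:**
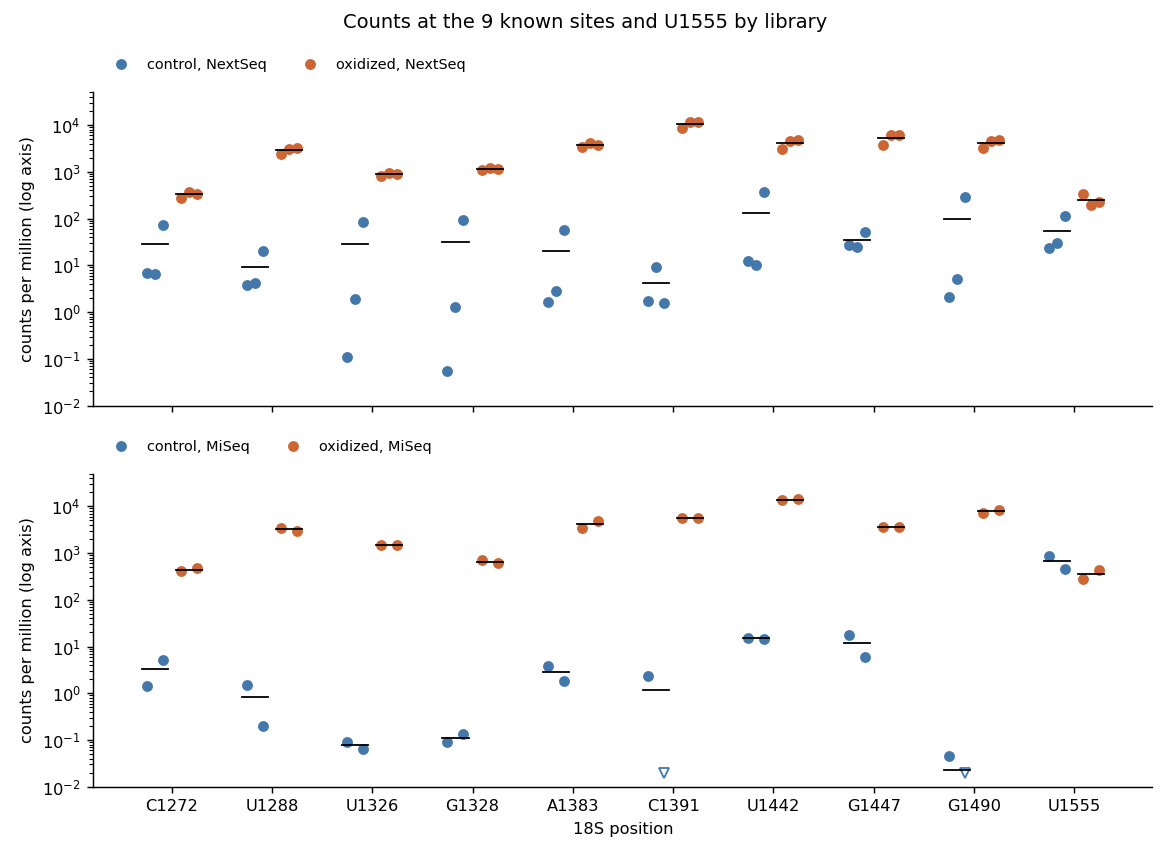
CPM (log axis) at the 9 known sites and U1555 in each NextSeq (top) and MiSeq (bottom) library, with black bars for the group means. Open triangles mark libraries with 0 counts. At each known site every oxidized library lies above every control library. At U1555 this holds in the NextSeq libraries, and both oxidized MiSeq libraries lie below both controls.

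The same 9 sites passed both limits in the MiSeq pilot, where 17 of 434 positions tested were called, against 2.36% of all 6661. C1272 stood at 1.45 and 5.13 CPM in the controls and 408 and 479 CPM in the oxidized libraries, with a log2 fold change of 7.37 (SE 0.86). U1326 stood at 0.0908 and 0.0658 CPM against 1458 and 1523 CPM, and G1328 at 0.0908 and 0.132 CPM against 720.3 and 599 CPM. The log2 fold changes of that pair were 14.33 (SE 0.46) and 12.73 (SE 0.46), and unlike in the NextSeq experiment both controls were near 0. A1383 stood at 3.93 and 1.84 CPM against 3394 and 4852 CPM. C1391 stood at 2.36 and 0 CPM, where 0 counts allow up to 0.0987 CPM if a count is a read and up to 4.94 CPM at 50 counts a read, against 5652 and 5652 CPM. U1442 stood at 15.3 and 14.7 CPM against 13334 and 14408 CPM, which made it the most counted position of the stretch in both oxidized MiSeq libraries. G1447 stood at 17.5 and 6.12 CPM against 3692 and 3603 CPM, a log2 fold change of 8.49 (SE 0.86). G1490 stood at 0.0454 and 0 CPM against 7355 and 8496 CPM. It had 2 counts in both controls together, so the ratio of its shares, 293484, has a 95% counting interval of 81235.5 to 2423540 if every count were 1 independent molecule. At about 50 counts a read this interval is too narrow. The edgeR Benjamini-Hochberg adjusted p of the 9 sites were between 0.00555 and 0.0232. Without control replicate 1 the log2 fold change of C1272 was 6.76, which left 8 of the 9 past the limits. TMM mattered less than in the NextSeq experiment, with a median over all positions of -4.76 against -4.98 with library totals alone.

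The difference between the experiments was tested itself, as the interaction of oxidation with experiment over all 10 libraries. In the stretch 16 positions had a larger fold change in the NextSeq experiment, against 3.65% of all 6732 positions, and 29 a larger one in the MiSeq pilot, against 4.55%. With library totals alone the numbers were 2 and 84, so the split depended on the scaling. Under TMM none of the 9 known sites was among these positions in edgeR's test with Benjamini-Hochberg adjustment, and their median difference was 0.10. With library totals all 9 differences were negative (median -3.62, from -12.64 to -0.92) and G1490 passed. Under TMM G1490 had a difference of -8.49 (SE 2.43, adjusted p = 0.0660, edgeR with Benjamini-Hochberg), and its NextSeq control replicate 3 alone held 283 CPM. At U1288 and C1272 the differences were 0.10 (SE 1.18) and 0.27 (SE 1.20), and with errors of that size the fold changes are not shown to be alike. Without NextSeq control replicate 1 or 2 the number of positions in the stretch with a difference fell from 45 to 6 or 7. Leaving out any other NextSeq library gave 47 to 65. In the MiSeq pilot, leaving out a library leaves 1 in its group, so the calls cannot be checked there in this way.

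**Figure D3:**
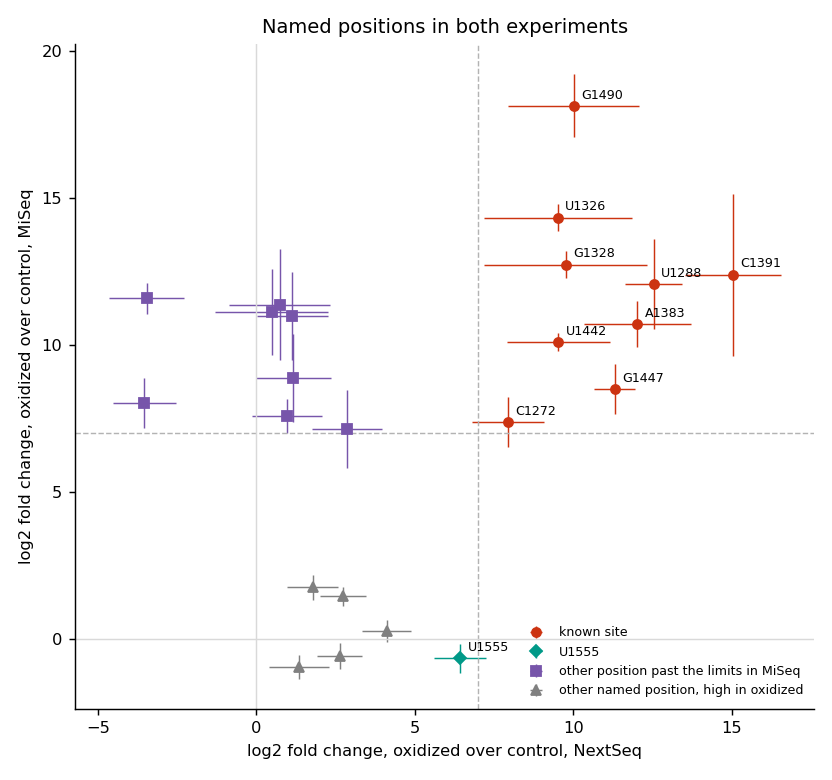
Log2 fold change (oxidized over control, points, with SE as bars) of the named positions in the NextSeq experiment (x axis) and the MiSeq pilot (y axis). Dashed lines mark the limit of 7. The 9 known sites lie past both lines. The 8 other positions past the limits in the MiSeq pilot lie between -3.53 and 2.87 in the NextSeq experiment, and U1555 lies at 6.44 and -0.67.

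Although all 9 sites rose in both experiments, their shares after oxidation were ordered differently. As a share of the counts of the stretch, the order in the oxidized NextSeq libraries was C1391 (29.2% ± 0.0143), G1447 (14.5% ± 1.55), G1490 (11.5% ± 0.642), U1442 (11.5% ± 0.783), A1383 (10.5% ± 0.816), U1288 (7.93% ± 0.258), G1328 (3.23% ± 0.412), U1326 (2.45% ± 0.212) and C1272 (0.909% ± 0.0374; SD, n = 3). G1490, U1442 and A1383 did not differ beyond their spread. In the oxidized MiSeq libraries U1442 led with 20.0% ± 0.193, followed by G1490 with 11.4% ± 0.649 and C1391 with 8.16% ± 0.368, and C1272 was again low at 0.639% ± 0.0434 (SD, n = 2). Levels of different sites are not set against each other as degrees of methylation, since the ligation of linkers prefers some ends.

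The 3 close pairs, picked after their values were seen, show this most simply. The count at U1326 divided by that at G1328 was 0.728, 0.765 and 0.789 in the oxidized NextSeq libraries and 2.02 and 2.54 in the oxidized MiSeq libraries. The ratio of A1383 to C1391 was 0.388, 0.359 and 0.332 against 0.601 and 0.858, and that of U1442 to G1447 was 0.836, 0.767 and 0.788 against 3.61 and 4.00. In each pair both MiSeq libraries had a higher ratio than all 3 NextSeq libraries, so that the 5′ site was relatively more counted in the MiSeq pilot, by 2.98, 2.0 and 4.77 times. The exact two-sided permutation p was 0.2 for each pair by the log2 ratio, over 3 pairs compared (Benjamini-Hochberg 0.2), and groups of 3 and 2 cannot reach 0.05. Machine, passage and library preparation moved together between the 2 experiments and cannot be told apart.

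In the control libraries the known sites were seen as gaps. Each count was divided by the median of the unlisted positions within 10 nt on either side. In NextSeq control replicates 1 and 2 all 9 sites were below 1, with medians of 0.0354 and 0.0986 over the sites. In the MiSeq controls all 9 were below 1 as well, with medians of 0.0485 and 0.0130. In the MiSeq controls the value was 0 to 0.0199 at U1326, G1328, C1391 and G1490. The gap was shallow at C1272, with 0.575, 0.651 and 0.842 in the NextSeq controls and 0.256 and 0.951 in the MiSeq controls. Control replicate 3 of the NextSeq had lost most of this pattern. Its median was 0.842, with 5 of the 9 sites below 1, and U1442 (1.88), G1328 (1.41), U1326 (1.07) and G1490 (1.05) were not reduced. C1391 (0.0163), U1288 (0.150) and G1447 (0.199) were still reduced in that library.

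The shares of counts on G and U at the other positions set NextSeq control replicates 1 and 2 apart from that library and from both MiSeq controls. Of the counts at the 431 positions that are not known sites, 42.3% and 42.4% in NextSeq control replicates 1 and 2 lay on G, which makes up 29.9% of those positions, and 12.3% and 12.4% on U, which makes up 21.6%. In replicate 3 the shares were 25.4% on G and 26.9% on U, and in the MiSeq controls 18.5% and 19.7% on G and 27.6% and 27.3% on U. The part that these preferences play in the fold changes was not tested.

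The positions between the sites held 10%, 7.16% and 7.36% of the counts of the stretch in the oxidized NextSeq libraries, and 41.1% and 40.5% in the oxidized MiSeq libraries. The median of these positions was 0.453, 0.488 and 0.876 CPM in the oxidized NextSeq libraries, against 35.4, 33.2 and 107 CPM in the controls. In the pilot it was 3.82 and 4.43 CPM after oxidation, against 20.3 and 24.4 CPM. Of the 440 positions, 125, 134 and 131 had 0 counts in the oxidized NextSeq libraries and 166 in each oxidized MiSeq library, where totals were also lowest. In edgeR's test 56 positions were lower after oxidation in the NextSeq experiment, against 18.8% of all positions tested, and 125 in the MiSeq pilot, against 51.6%, and none of either was a known site. The NextSeq count needed both control replicates 1 and 2. Without replicate 1 or 2 it was 0 or 2, and without replicate 3 it was 66. In the MiSeq pilot, leaving out 1 control leaves a single control, so this cannot be checked there. Counting positions at which every oxidized library held a larger share than every control gave 10 in the NextSeq experiment, against 1.65% of all positions, and these were the 9 known sites and U1555. In the MiSeq pilot the same count gave 114, against 14.4%, so there it sets the known sites apart far less.

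The peaks at the known sites were sharp in the NextSeq libraries. Summed over the sites, the positions 1 nt before and 1 nt after held 0.692% ± 0.144 and 0.622% ± 0.0737 of the counts at the sites, and other positions within 6 nt held 0.102% to 0.543% (mean over n = 3). In the MiSeq libraries the same positions held 1.08% to 7.77% (n = 2), more at each of the 12 distances. The highest value, 7.77% ± 1.07 at 2 nt before the site, came mostly from C1440, which held 19% ± 4.45 of the count at U1442 in the MiSeq libraries and 1.58% ± 0.00934 in the NextSeq libraries. The most counted neighbour in the NextSeq libraries by this measure was C1273, at 11.3% ± 2.65 of C1272, the weakest site. In the MiSeq libraries C1272 was no sharp peak. G1274 held 41.4% ± 22.8, A1276 33.9% ± 21.8, G1269 33.7% ± 21.3 and C1271 22.2% ± 6.89 of its count (SD, n = 2). These spreads are wide. C1272 itself had only 640 and 648 counts, which is few reads if a read is worth about 50 counts. C1440 was also the highest position that is not a known site in both oxidized MiSeq libraries.

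**Figure D4:**
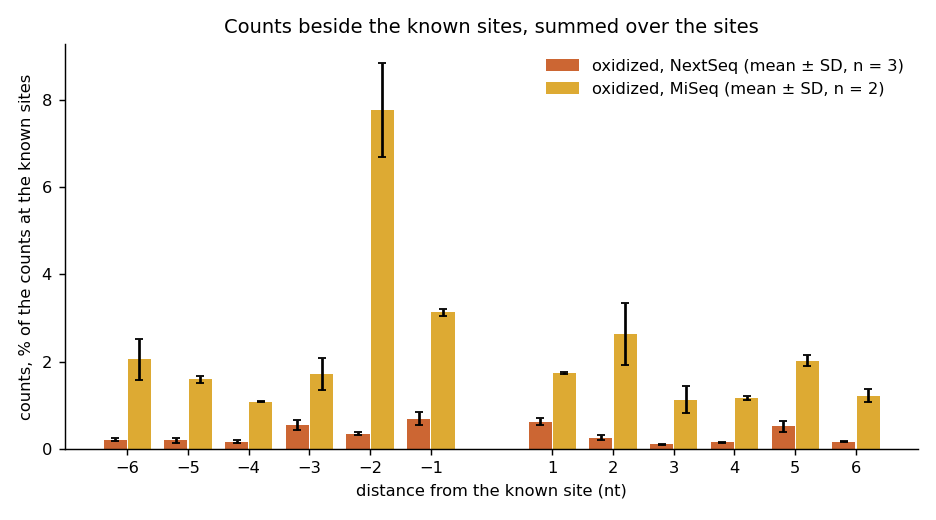
Counts within 6 nt of the known sites as a percentage of the counts at the sites, summed over sites (bars, mean; error bars, SD; n = 3 NextSeq and n = 2 MiSeq oxidized libraries), by distance from the site, negative being 5′. Other known sites are left out of the neighbours. The MiSeq bars are the higher at all 12 distances, most at -2 (7.77% against 0.349%).

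U1555 behaved differently in the 2 experiments. In the NextSeq experiment it had 23.0, 30.2 and 113 CPM in the controls and 333, 196 and 229 CPM in the oxidized libraries. The groups did not overlap, and it was the most counted position that is not a known site in each oxidized library. Its log2 fold change was 6.44 (SE 0.82, adjusted p = 0.012, edgeR with Benjamini-Hochberg), below the limit of 7, and the next of the other positions was G1320 with 4.82. With library totals alone it was 2.19, with an edgeR Benjamini-Hochberg adjusted p of 0.0621, so that passing 0.05 depended on the scaling. Within passage 6 alone, which leaves out replicate 3 of both groups, it was 6.98. In the MiSeq pilot U1555 had 864 and 466 CPM in the controls and 278 and 434 CPM in the oxidized libraries. There both oxidized libraries were below both controls, and the log2 fold change was -0.67 (SE 0.50, adjusted p = 0.312, edgeR with Benjamini-Hochberg). Without control replicate 1 or 2 it was -0.06 or -1.09, and with counts divided by 50 it was -0.88, with an edgeR Benjamini-Hochberg adjusted p of 0.0349.

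The interaction test put the difference between the experiments at 6.74 (SE 1.02, adjusted p = 0.0130, edgeR with Benjamini-Hochberg). It was 3.09 with library totals alone, at an edgeR Benjamini-Hochberg adjusted p of 0.117. Without MiSeq control replicate 1 or 2 it was 6.13 or 7.16, and the adjusted p by the same edgeR test with Benjamini-Hochberg adjustment was 0.0748 or 0.0676. The values around U1555 show where the experiments parted. In all 5 oxidized libraries U1555 was the highest of the 21 positions from 1545 to 1565, with 38.3%, 32.6% and 31.1% of their counts in the NextSeq and 22.0% and 26.6% in the MiSeq libraries. In both MiSeq controls it was the highest too, with 38062 and 14168 counts, and it was the most counted of all 440 positions there. It stood at 9.44 and 7.55 times the median of its unlisted neighbours, where the known sites had gaps. In the NextSeq controls it ranked 16th, 15th and 14th of the 21, at 0.209, 0.253 and 0.862 times its neighbours, and G1552, 3 nt upstream, was the highest position of the whole stretch in replicates 1 and 2 with 227189 and 264218 counts. U1555 thus lay below the median of its neighbours in NextSeq control replicates 1 and 2. The medians over the known sites were lower there, at 0.0354 and 0.0986. Known sites lay on both sides of U1555, however. C1272 (0.575 and 0.651) and G1447 (0.449 and 0.548) were less reduced than U1555 in both libraries, and U1326 (0.283) in replicate 2. Unlisted positions near U1555 were lower than it as well, such as U1560 with 102 and 162 counts. In replicate 3 U1555 was little reduced, at about the median of the known sites there (0.842). In the MiSeq controls U1555 was a peak.

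**Figure D5:**
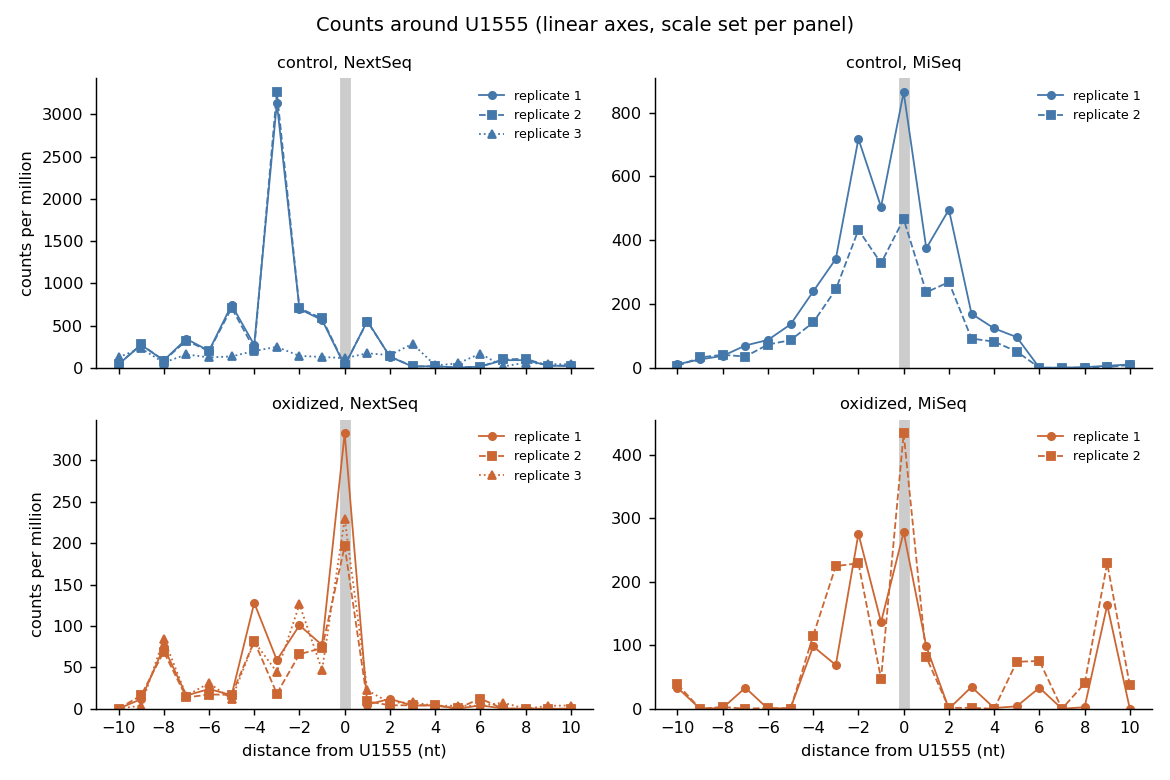
CPM from 10 nt before to 10 nt after U1555 (grey bar at 0) in each library of the 4 groups, on linear axes whose scale differs between panels. U1555 is the highest position in all 5 oxidized libraries and in both MiSeq controls, and in NextSeq control replicates 1 and 2 it lies in a trough beside the peak 3 nt upstream.

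The positions beside U1555 were counted after oxidation as well. U1551 had 128, 81.5 and 81.1 CPM and C1553 had 101, 65.9 and 126 CPM in the oxidized NextSeq libraries. In the controls they had more, 269.8, 222 and 198 CPM at U1551 and 695, 704 and 139.8 CPM at C1553. Their log2 fold changes were 2.64 (SE 0.71) and 1.35 (SE 0.94) under TMM and -1.25 and -2.39 with library totals, so no direction is given for them. A1388 and U1390, 3 nt and 1 nt before C1391, were in the same position, with 2.75 (SE 0.72) and 1.79 (SE 0.81) under TMM and -1.10 and -1.98 with library totals. C1384, next to A1383, had 77.0, 67.2 and 65.6 CPM in the controls and 45.9, 103 and 95.7 CPM in the oxidized libraries, which overlapped. Its log2 fold change was 4.11 under TMM (SE 0.76, adjusted p = 0.0359, edgeR with Benjamini-Hochberg) and 0.22 with library totals.

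In the MiSeq pilot 8 positions that are not known sites passed both limits, which is 1.88% of the 425 tested here, against 1.08% of all 6555 such positions. Without control replicate 1 or 2 the total with the known sites fell from 17 to 10 or 11. They were A1623 (log2 fold change 11.58), G1269 (11.36), C1472 (11.11), A1561 (10.98), A1489 (8.88), G1411 (8.02), C1471 (7.56) and C1271 (7.13). A1489 and C1271 stand 1 nt before the known sites G1490 and C1272, G1269 stands 3 nt before C1272, and C1471 and C1472 are neighbours of each other. C1472 and A1561 had 2 counts each over both controls, against 170 and 154 in the oxidized libraries, so the ratios of their shares, 2165 and 1962, have 95% counting intervals of 590.3 to 18025 and 534 to 16342 if every count were 1 independent molecule, and these too are too narrow at about 50 counts a read. None of the 8 passed both limits in the NextSeq experiment, where the log2 fold changes ran from -3.53 to 2.87 under TMM and from -7.85 to -1.57 with library totals alone. The sign of 6 of the 8 thus depended on the scaling, and no direction is given for them there. A1623 had 163 and 151 CPM in the oxidized MiSeq libraries but 0.151, 0.163 and 0.146 CPM, which is 2 counts each, in the oxidized NextSeq libraries. C1471 was the most counted of the 8 in the oxidized MiSeq libraries, with 667 and 572 CPM, and had 16, 13 and 15.6 CPM in the oxidized NextSeq libraries. At all 8 positions both oxidized MiSeq libraries were above both MiSeq controls, and at none of them were all oxidized NextSeq libraries above all NextSeq controls.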

How the data were processed

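RibOxi-seq was carried out on total RNA of PA1 cells in 10 libraries. Per the labels and the study's methods, the authors trimmed reads with cutadapt 1.12, collapsed PCR duplicates by a random hexamer, aligned with TopHat2 2.1.1 to hg19, sorted with SAMtools 0.1.19 and deposited, for each library, the count of alignments with a 3′ end at each rRNA position, not normalized. Lines for 5.8S rRNA (153 in 5 libraries, 85 in 1, all at 0) were left out. The authors' DESeq2 tables and base call lists hold their own fold changes and p-values and were not used.

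Counts of all 18S and 28S positions with at least 1 count were fitted in edgeR 4.0.16 (R 4.3.3) by the quasi-likelihood test with TMM factors, separately for the NextSeq and MiSeq libraries and, for the interaction, over all 10. P-values were adjusted by Benjamini-Hochberg over all positions. Calls were made past 7 on the log2 scale with adjusted p under 0.05. The study used an adjusted p of 0.0001, which no position of the stretch reached in this test. The SE is the log2 fold change divided by the root of the F statistic, and fitted folds used a prior count of 0.125. Shares were compared by exact permutation tests over libraries. The limit for a count of 0 was 3 counts. Intervals and this limit cover counting error only and treat each count as 1 read.

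The stretch, the candidate and the lists were chosen with earlier results of these data known. The named positions were the known sites, U1555, other positions called in either experiment (up to 10 each) and the 5 others with the largest mean share in the oxidized NextSeq libraries. Some replicates came close to sampling noise when a read was taken as 50 counts (chi-square per degree of freedom 1.15 for NextSeq controls 1 and 2, 1.39 for oxidized NextSeq 2 and 3, 1.25 for oxidized MiSeq 1 and 2, and 4.52 to 250.1 for the others). They still differed beyond it and were kept apart. Their averaging and the passage 6 libraries alone were alternatives chosen after seeing the data. Other alternatives were RLE and TMMwsp factors, library totals, DESeq2 1.42.0, a likelihood ratio test, filters, division by 50, a replicate block, passage as a covariate and leaving out each library. The scripts were tested on simulated data. Sequences are from the hg19 genome, and snoRNA genes from the GENCODE annotation lifted to hg19, which gave 6 of the 9 listed.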

Additional observations from a re-analysis of the deposited data

Results flagged for a closer look

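At 6 named positions the effect of oxidation differed between the NextSeq and MiSeq experiments, by edgeR's quasi-likelihood test of the interaction over all 10 libraries with Benjamini-Hochberg adjustment. At U1555 the log2 fold change was 6.74 larger in the NextSeq experiment (SE 1.02, adjusted p = 0.0130). The other 5 had a larger log2 fold change in the MiSeq pilot. At A1623 the difference, NextSeq minus MiSeq, was -15.40 (SE 1.86, adjusted p = 0.0125), with 2 counts in each MiSeq control and each oxidized NextSeq library. At G1411 it was -11.94 (SE 1.54, adjusted p = 0.0125), again with 2 counts in each oxidized NextSeq library. At A1561 it was -10.25 (SE 2.14, adjusted p = 0.0237), with 2 and 0 counts in the MiSeq controls. At A1489 it was -7.97 (SE 2.03, adjusted p = 0.0450) and at C1471 it was -6.86 (SE 1.61, adjusted p = 0.0332). The size of a fitted difference at counts this low depends on the prior count. Groups of 2 or 3 libraries were too small for a test of single libraries that lie far from the others.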

How the results depend on the processing

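In the NextSeq experiment the 9 calls above the fold limit, all known sites, became 4 with library totals alone, 0 at an adjusted p of 0.0001, 19 with no fold limit, 6 with counts divided by 50, and 7 to 9 when 1 library was left out. DESeq2 gave 9 known sites at adjusted p limits of both 0.05 and 0.0001. The 56 lower positions became 262 with library totals, 109 with DESeq2, 110 with the likelihood ratio test, 0 with counts divided by 50, 7 with close replicates averaged, 92 with passage 6 alone, 0 at an adjusted p of 0.0001 and 0 to 66 without 1 library. In the MiSeq pilot the 17 higher positions became 0 at an adjusted p of 0.0001, 91 with no fold limit and 10 to 19 without 1 library, and the 9 known sites 0 and 8 to 9. DESeq2 at 0.0001 kept 17 higher positions and 9 known sites. The 125 lower positions became 49 with counts divided by 50, 0 at an adjusted p of 0.0001, 69 with DESeq2 at that limit and 0 to 173 without 1 library. The 45 positions with a difference between the experiments became 86 with library totals, 123 with DESeq2, 19 with counts divided by 50 and 0 to 65 without 1 library. The difference in the share of counts at known sites was 88.4 percentage points with 1 nt on each side added (90.7 to 92.1 without 1 library) in the NextSeq experiment and 56.2, or 59.8 with counts divided by 50 (58.8 to 59.4), in the MiSeq pilot. With library totals alone the log2 fold change turned negative at A1388 (-1.10), U1390 (-1.98), C1553 (-2.39) and U1551 (-1.25), and also, with no test passed on either scale, at G1269 (-3.77), C1472 (-4.04), A1561 (-3.27), A1489 (-3.37), C1471 (-3.54) and C1271 (-1.57). The difference between experiments at U1442 ran from -1.32 to 1.56 without 1 library (-0.82 with all), and was positive without NextSeq control replicate 3. The deviations of same-numbered libraries correlated at r from -0.0210 to 0.0283. Groups of 2 or 3 libraries cannot show in this way whether the numbers pair them. Replicate 3 of both NextSeq groups came from passage 4. With the replicate number as a block, 9 positions, all known sites, were still called in the NextSeq experiment, and 0 were lower there. The block left 0 higher, 0 lower and 0 known sites in the MiSeq pilot, where it leaves 1 residual degree of freedom, and 0 differences between the experiments. Other causes were not tested. Depth limits the positions between sites, where many oxidized counts were 0 or 2.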
